A study of Homo sapiens with 4 samples.

Results

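The natriuretic peptide system was described through 8 genes of the 60234 in the deposited count table, chosen by name: the peptide genes NPPA, NPPB and NPPC, the processing proteases CORIN and FURIN, and the receptors NPR1, NPR2 and NPR3. They were followed in 4 RNA-sequencing libraries of hESCs of the NKX2.5 (eGFP/w) line, in which GFP is expressed from an NKX2-5 allele, differentiated toward heart as spin embryoid bodies (EBs). Cultures received either 1 µM retinoic acid (RA) or its solvent DMSO (control, CTR) from day 4 to day 7 and were sorted at day 31 into GFP-positive and GFP-negative cells. The groups were thus RA GFP-positive, CTR GFP-positive, RA GFP-negative and CTR GFP-negative cells, all of them carrying the reporter allele, with 1 library each. All 4 come from a single cell line, and the GFP-negative fraction is every cell without reporter signal rather than a defined cell type. No difference between groups has a replicate check, and no p-value is given.

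Natriuretic peptides are hormones made as longer precursors. NPPA encodes atrial natriuretic peptide (ANP), which in the developing heart is made in atrial and trabecular myocardium, NPPB encodes B-type natriuretic peptide (BNP), and NPPC encodes C-type natriuretic peptide (CNP), best known from cartilage and endothelium. CORIN, a transmembrane serine protease of cardiomyocytes, cuts the ANP precursor, and FURIN, a protease of the secretory pathway in most cells, cuts the precursors of BNP and CNP. The receptors NPR1 (for ANP and BNP) and NPR2 (for CNP) are guanylyl cyclases that make cGMP, whereas NPR3 lacks the cyclase domain and takes up all 3 peptides for breakdown.

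Counted reads numbered 26222787 to 28643091 in 3 of the libraries and 4371101 in the library of CTR GFP-negative cells, the shallowest. Levels are CPM, counts scaled to library size with TMM factors, with exact Poisson intervals, and ratios of CPM carry Clopper-Pearson intervals, all at the 95% level. These intervals and the floor of 3 reads used for genes without reads cover counting error only, since amplified reads are not independent molecules. A difference is that of log2(CPM + 1), which understates the change of low genes. NKX2-5, on which cells were sorted, stood at 463 and 593 CPM in the RA and CTR GFP-positive libraries and at 9.74 and 14.5 CPM in the GFP-negative ones. All 13 cardiomyocyte markers examined were at least 2-fold above the GFP-negative level in the GFP-positive fraction under both treatments, with a median ratio of 20.7 in CTR and 20.8 with RA. Of 9 fibroblast and smooth muscle markers, 8 were at least 2-fold higher with RA in GFP-positive cells, beside 4.14% of all such genes. The summed level of the 9 was 15516 CPM with RA and 4208 CPM in CTR. In GFP-negative cells that sum was 61930 CPM with RA and 32361 CPM in CTR. Gut and liver endoderm markers of the same fraction summed to 828 CPM with RA and 30.5 CPM in CTR. All 7 (of 8 listed) that reached 10 CPM were at least 2-fold higher with RA, beside 4.95% of all such genes. Neural and eye markers there summed to 144 CPM with RA and 318 CPM in CTR. The part of these shifts in the differences of the members was not tested.

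The windows of 250 bases before the start of NPPA, CORIN and NPR3 are shown because these members differed most between the libraries. They are RefSeq sequences of the GRCh38.p14 build, written 5′ to 3′ on the strand of the gene: NPPA at chr1:11847784-11848033 on the minus strand, CORIN at chr4:47838068-47838317 on the minus strand, and the second of the NPR3 windows at chr5:32710399-32710648 on the plus strand. Capitals mark matches, on either strand, to a set of short motifs.
NPPA: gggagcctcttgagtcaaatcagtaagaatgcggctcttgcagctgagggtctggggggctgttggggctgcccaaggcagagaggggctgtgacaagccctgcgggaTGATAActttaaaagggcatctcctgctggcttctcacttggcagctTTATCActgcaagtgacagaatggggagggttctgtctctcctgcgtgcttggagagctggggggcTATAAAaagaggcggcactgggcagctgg
CORIN: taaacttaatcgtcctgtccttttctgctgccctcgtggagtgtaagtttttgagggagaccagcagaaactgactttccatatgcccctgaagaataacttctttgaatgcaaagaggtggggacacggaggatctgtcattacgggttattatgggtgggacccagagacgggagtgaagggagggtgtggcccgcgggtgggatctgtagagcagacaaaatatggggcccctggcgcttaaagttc
NPR3: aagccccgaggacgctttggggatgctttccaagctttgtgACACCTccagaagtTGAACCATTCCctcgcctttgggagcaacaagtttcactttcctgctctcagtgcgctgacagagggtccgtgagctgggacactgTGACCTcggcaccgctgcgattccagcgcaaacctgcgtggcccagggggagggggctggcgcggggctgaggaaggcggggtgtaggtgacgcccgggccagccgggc

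The NPPA window held a match to the GATA motif TGATAA at 142 to 137 bases before the start, its reverse complement TTATCA at 95 to 90 bases, and a TATAAA box at 29 to 24 bases. The NPR3 window held ACACCT, the reverse complement of the T-box motif AGGTGT, at 209 to 204 bases before the start. It also held TGAACC, the reverse complement of the nuclear receptor half-site GGTTCA, at 195 to 190 bases, sharing its last base with the TEAD motif CATTCC at 190 to 185 bases. TGACCT, the reverse complement of the half-site AGGTCA, lay at 109 to 104 bases. The CORIN window and the other NPR3 window held none of the letters searched, which were these motifs, AGATAA, the NKX2-5 motif TNAAGTG and the CArG box. Such matches are common: of 35114 RefSeq windows of this length, 14.6% held a GATA motif (AGATAA or TGATAA), 10.7% TATAAA, 9.57% the T-box motif, 18.1% a half-site (AGGTCA or GGTTCA), 11.9% the TEAD motif, 8.73% the NKX2-5 motif and 1.16% a CArG box. Windows for 7 of the 8 members were in the table, which had none for NPPB.

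NPPA was the peptide gene with the highest level per kilobase in every library and was higher with RA in GFP-positive cells. The gene (ENSG00000175206) lies at chr1:11905766-11908402 on the minus strand of GRCh37 and is protein coding. It had 3493 reads in RA GFP-positive cells, 1083 in CTR GFP-positive cells, 73 in RA GFP-negative cells and, in the shallow CTR GFP-negative library, 9. These counts corresponded to 131 CPM (126 to 135), 37.8 CPM (35.6 to 40.1), 2.84 CPM (2.23 to 3.58) and 1.92 CPM (0.876 to 3.64). The GFP-positive libraries were thus the high ones, and within them the RA library stood above CTR with intervals that did not overlap. The ratio of RA to CTR was 3.46 (3.23 to 3.70) in GFP-positive cells, a log2 difference of 1.76 that ranked 186 from the top of 11186 genes that reached 10 CPM in 1 or both of the libraries. In GFP-negative cells the ratio was 1.48 (0.740 to 3.37), an interval that includes 1, with 9 reads in CTR. Chamber markers moved with NPPA in GFP-positive cells. All 6 atrial markers were higher with RA, 4 of them at least 2-fold, beside 4.14% of all genes. Their ratios ran from 1.25 (TBX5) to 19.9 (SLN, a regulator of the atrial calcium pump). These markers were not confined to GFP-positive cells. In CTR 4 of the 6 were lower there than in GFP-negative cells, 3 of them at least 2-fold, and with RA 4 were higher and 2 lower. SLN had GFP-positive to GFP-negative ratios of 0.0609 in CTR and 0.337 with RA. All 6 ventricular markers were lower with RA in GFP-positive cells, 5 of them at least 2-fold, beside 1.67% of all genes. Their ratios ran from 0.124 (HEY2, a ventricular repressor) to 0.714 (MYL3, a myosin light chain). The part of these chamber markers in the NPPA difference was not tested. In the GENCODE annotation used here, which may differ from the release used for counting, 286 of the 1120 exon bases of NPPA (25.5%) are shared with CLCN6 on the opposite strand. Counting did not use strand, so that reads within shared bases could not be given to either gene. CLCN6, a chloride transporter, had an RA to CTR ratio of 0.819 in GFP-positive cells. In bulk RNA, fewer cells of a type and less RNA per cell cannot be told apart, here and in every comparison that follows.

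NPPB (ENSG00000120937, chr1:11917521-11919002, minus strand) lies 9118 bases from NPPA and was hardly expressed. Its reads numbered 50 in RA GFP-positive cells, 33 in CTR GFP-positive cells, 14 in RA GFP-negative cells and 0 in CTR GFP-negative cells, where the floor of 3 reads is 0.639 CPM and the Poisson interval reaches 0.786 CPM. The levels were 1.87 CPM (1.39 to 2.46), 1.15 CPM (0.793 to 1.62) and 0.546 CPM (0.298 to 0.915) in the first 3. The GFP-positive libraries overlapped in their intervals of level, and the ratio of RA to CTR between them was 1.62 (1.03 to 2.60), with a log2 difference of 0.42. After all libraries were thinned to the depth of the shallowest, that difference rested on 11 and 3 reads and came to 1.11. No fold is given for GFP-negative cells, where the RA level lay below that floor of the CTR library.

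NPPC (ENSG00000163273, chr2:232786519-232791106, minus strand) was at the limit of detection, with 7 reads in RA GFP-positive cells, 1 in CTR GFP-positive cells, 26 in RA GFP-negative cells and 0 in CTR GFP-negative cells. RA GFP-negative cells stood at 1.01 CPM (0.662 to 1.48), at least 1.59-fold higher than a floor of 3 reads in the CTR GFP-negative library, and the interval of their ratio starts at 1.20. At equal depth both RA libraries held 3 NPPC reads and both CTR libraries 0. In GFP-positive cells the ratio of 7 reads to 1 was 7.50 (0.964 to 338), which includes 1.

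Within a library the balance of the peptides needs no scaling. NPPA reads outnumbered NPPB reads 69.9-fold (52.9 to 94.3) in RA GFP-positive cells, 32.8-fold (23.2 to 47.9) in CTR GFP-positive cells and 5.21-fold (2.92 to 10.0) in RA GFP-negative cells, and 9 to 0 in CTR GFP-negative cells. After thinning in a single random draw the ratios in GFP-positive cells were 50.5 with RA and 58.3 in CTR, on 11 and 3 NPPB reads. These libraries were already similar in depth, so so small a draw does not decide their order. Per kilobase of exon NPPA was still 44.2-fold above NPPB with RA and 20.7-fold above it in CTR in GFP-positive cells.

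**Figure D1:**
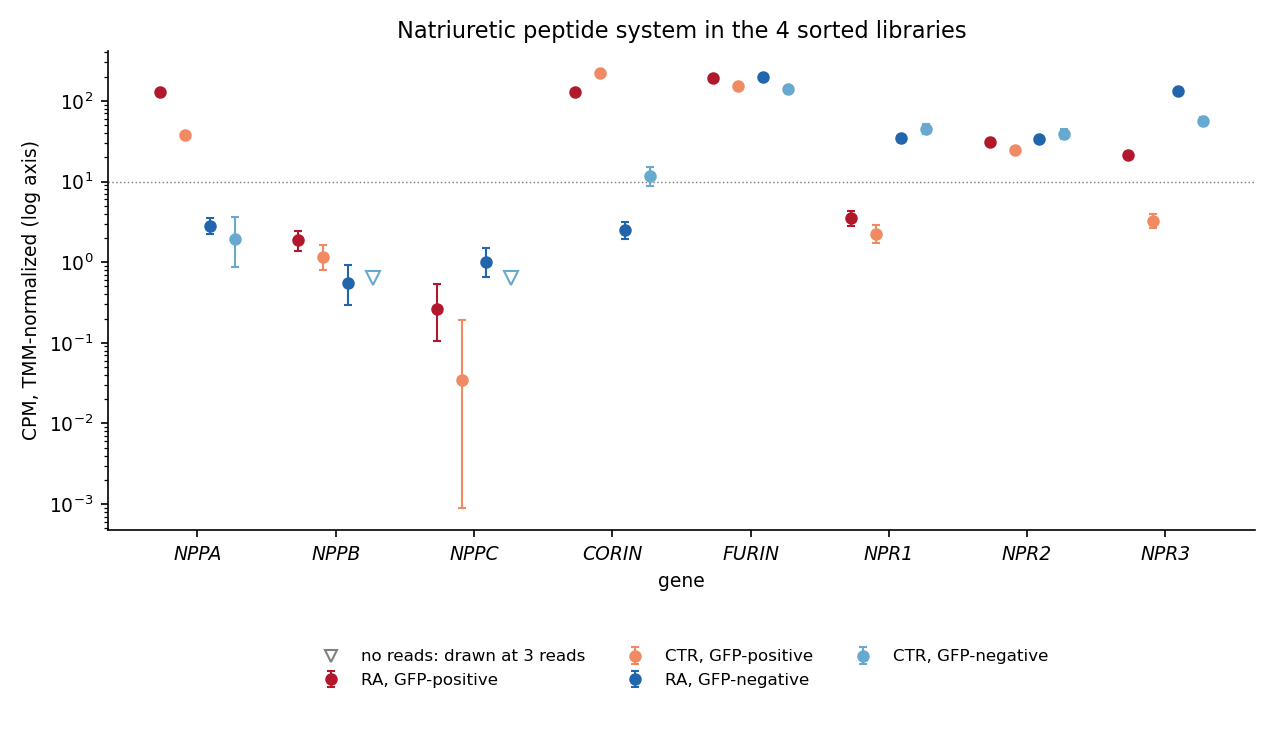
Level of each member in the 4 libraries, in CPM on a log axis, with 95% Poisson intervals, open triangles (drawn at 3 reads) for libraries without reads and a dotted line at 10 CPM. NPPA and CORIN are high in the GFP-positive libraries, NPR1 and NPR3 in the GFP-negative ones, and FURIN lies between 139 and 199 CPM throughout.

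CORIN, the convertase of the ANP precursor, was lower with RA in both fractions, opposite in direction to NPPA. The gene (ENSG00000145244) lies at chr4:47596016-47840123 on the minus strand. It had 3450 reads in RA GFP-positive cells, 6291 in CTR GFP-positive cells, 64 in RA GFP-negative cells and 55 in the shallow CTR GFP-negative library. The levels were 129 CPM (125 to 133), 220 CPM (214 to 225), 2.49 CPM (1.92 to 3.18) and 11.7 CPM (8.82 to 15.2). Intervals did not overlap between RA and CTR in either fraction. The level with RA was 1.70-fold lower (1.63 to 1.77) in GFP-positive cells, a log2 difference of -0.76 that did not reach 2-fold and ranked 351 from the bottom. In GFP-negative cells it was 4.70-fold lower (3.21 to 6.84), a log2 difference of -1.86 that ranked 72 from the bottom of 11606 genes. The 13 cardiomyocyte markers moved in the same direction in that fraction, 11 of them lower with RA, with a summed level of 579 CPM against 1096 CPM in CTR. In the GFP-positive fraction, too, 11 of the 13 were lower with RA, with sums of 18953 CPM and 22974 CPM in CTR. The part of the cardiomyocyte content in the CORIN difference was not tested.

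FURIN (ENSG00000140564, chr15:91411818-91426794, plus strand) was expressed at a similar level everywhere. It had 5140, 4452, 5100 and 653 reads, or 192, 155, 199 and 139 CPM, in RA GFP-positive, CTR GFP-positive, RA GFP-negative and CTR GFP-negative cells. The RA libraries were the higher ones, by 1.24-fold (1.19 to 1.29) in GFP-positive and 1.43-fold (1.32 to 1.55) in GFP-negative cells. Neither difference came near 2-fold. Between GFP-positive and GFP-negative cells the ratio was 1.12 (1.03 to 1.21) in CTR and 0.967 (0.930 to 1.01) with RA, the smallest such differences among the 6 members with at least 10 CPM.

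Among the receptors, NPR3, the clearance receptor, differed most with RA. The gene (ENSG00000113389, chr5:32689176-32791830, plus strand) had 566 reads in RA GFP-positive cells, 94 in CTR GFP-positive cells, 3452 in RA GFP-negative cells and 267 in CTR GFP-negative cells. Its levels were 21.2 CPM (19.5 to 23.0), 3.28 CPM (2.65 to 4.01), 135 CPM (130 to 139) and 56.9 CPM (50.2 to 64.1). NPR3 was thus high in GFP-negative cells and, within each fraction, higher with RA. The ratio of RA to CTR was 6.45 (5.18 to 8.11) in GFP-positive cells, with a log2 difference of 2.37 that ranked 88 from the top, and 2.37 (2.09 to 2.69) in GFP-negative cells, with a log2 difference of 1.23 that ranked 395. Fibroblast and smooth muscle genes moved with it. COL1A2, a fibrillar collagen chain, had a ratio of RA to CTR of 4.40 in the GFP-positive fraction and 1.95 in the GFP-negative one, and the 9 markers of that list had ratios from 1.09 (CNN1) to 34.3 (MYH11) in GFP-positive cells. Not all 9 were low in GFP-positive cells as NPR3 was. There 2 were higher than in GFP-negative cells in CTR, CNN1 the most at 2.55-fold, and 3 with RA, MYH11 the most at 4.04-fold.

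NPR3 was also counted against COL1A2, the gene nearest to it in profile over these libraries, so that a narrow range of this ratio follows from the choice of denominator. It had 11.4 reads per 1000 COL1A2 reads (10.5 to 12.4) in RA GFP-positive cells, 7.78 (6.28 to 9.53) in CTR GFP-positive cells, 10.7 (10.4 to 11.1) in RA GFP-negative cells and 8.87 (7.83 to 10.0) in CTR GFP-negative cells. RA libraries remained the higher ones on this measure, by intervals that did not overlap within a fraction. Against COL1A1, COL1A2 and COL3A1 together the values were 1.46, 0.883, 2.29 and 1.83 NPR3 reads per 1000 in the same order. These denominators were chosen after the NPR3 values were seen, and the part of the stromal content in the NPR3 difference was not tested.

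NPR1, the cyclase receptor for ANP and BNP, was a transcript of the GFP-negative fraction. The gene (ENSG00000169418, chr1:153651164-153666468, plus strand) had 94 reads in RA GFP-positive cells, 64 in CTR GFP-positive cells, 898 in RA GFP-negative cells and, in the CTR GFP-negative library, 212. The levels were 3.51 CPM (2.84 to 4.30), 2.23 CPM (1.72 to 2.85), 35.0 CPM (32.7 to 37.4) and 45.1 CPM (39.3 to 51.7). The direction of the RA difference was not the same in the fractions, with a ratio of 1.57 (1.13 to 2.20) in GFP-positive and 0.775 (0.667 to 0.905) in GFP-negative cells. In a single random draw thinned to the depth of the shallowest library, the GFP-positive libraries held 13 reads with RA and 14 in CTR. Their log2 difference was then -0.02 in place of 0.48. Both libraries were already similar in depth, so a draw this small does not decide the direction. Of the endothelial genes, CDH5, a cadherin of endothelial junctions, stood at 1.16, 0.838, 41.7 and 35.6 CPM and KDR, a VEGF receptor, at 9.69, 14.8, 142 and 204 CPM in RA GFP-positive, CTR GFP-positive, RA GFP-negative and CTR GFP-negative cells. The 7 endothelial and endocardial markers summed to 208 CPM in each GFP-positive library, and to 674 CPM with RA and 569 CPM in CTR in the GFP-negative fraction. There 6 of the 7 were higher with RA, against the direction of NPR1, and KDR was the 1 lower. NPR1 and these genes were all higher in the GFP-negative libraries, and the part of the endothelial content in the NPR1 level was not tested.

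NPR2 (ENSG00000159899, chr9:35791000-35809729, plus strand), the receptor for CNP, was present in both fractions. It had 833, 697, 866 and 185 reads, or 31.1, 24.3, 33.7 and 39.4 CPM, in RA GFP-positive, CTR GFP-positive, RA GFP-negative and CTR GFP-negative cells. The ratio of RA to CTR was 1.28 (1.16 to 1.42) in GFP-positive cells and 0.857 (0.730 to 1.01) in GFP-negative cells, both within 2-fold. Its exons share 329 bases (3.94%) with SPAG8 on the other strand.

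**Figure D2:**
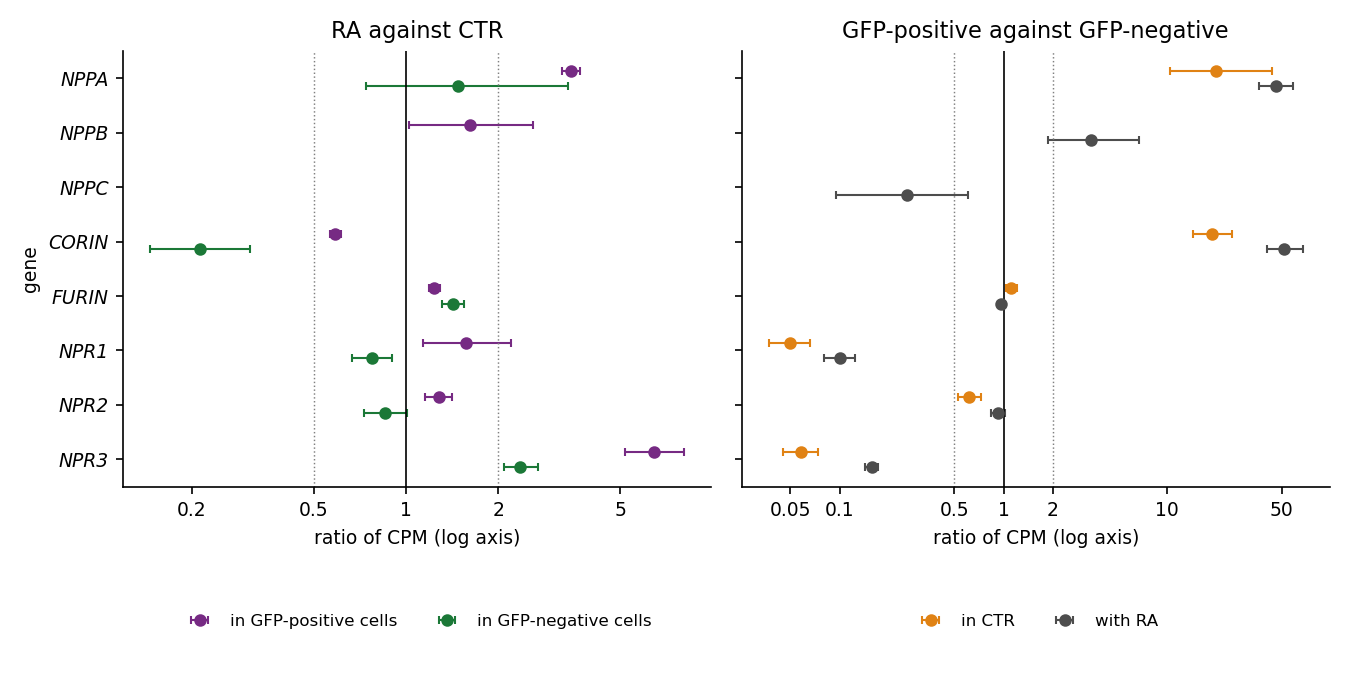
Ratio of CPM of each member, on log axes, between RA and CTR (left) and between GFP-positive and GFP-negative cells (right), with 95% Clopper-Pearson intervals, for members with at least 4 reads in both libraries. Dotted lines mark 2-fold. NPPA and NPR3 lie above 2-fold for RA in GFP-positive cells, and CORIN lies below 1 in both fractions.

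Counted over the members, 5 of 8 had at least 10 CPM in either GFP-positive library, and 2 of them, NPPA and NPR3, were at least 2-fold higher with RA. Among all genes at that level 5.81% differed by at least 2-fold, with 4.14% higher and 1.67% lower. In GFP-negative cells 5 of 8 again had at least 10 CPM, and 2 differed by at least 2-fold, NPR3 higher and CORIN lower, where 8.13% of all genes did so (4.95% higher and 3.18% lower). The median log2 difference over all such genes was 0.02 for the GFP-positive and 0.08 for the GFP-negative libraries. NPR3 was the member past 2-fold in both fractions.

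The sort separated the members into 3 kinds. In CTR, 6 members had at least 10 CPM and 4 differed by at least 2-fold, where 25.2% of all genes did so (11.9% higher and 13.3% lower in GFP-positive cells). With RA the same 4 of 6 members differed, where 22.4% of all genes did so (9.97% higher and 12.4% lower). The members higher in GFP-positive cells were NPPA and CORIN. NPPA was 19.7-fold higher (10.3 to 43.2) in CTR and 45.9-fold higher (36.4 to 58.7) with RA. CORIN was 18.7-fold higher (14.4 to 24.9) and 51.7-fold higher (40.4 to 67.3). For comparison TNNT2, the cardiac troponin T gene, was 20.7-fold higher in CTR and 34.6-fold higher with RA. The members lower in GFP-positive cells were NPR1 and NPR3. NPR1 was 20.2-fold lower (15.2 to 27.2) in CTR and 9.96-fold lower (8.04 to 12.4) with RA, and NPR3 was 17.3-fold lower (13.7 to 22.2) and 6.36-fold lower (5.81 to 6.96). FURIN and NPR2 formed the remainder, with NPR2 1.62-fold lower (1.37 to 1.91) in GFP-positive cells in CTR and at a ratio of 0.923 (0.838 to 1.02) with RA. NPPB and NPPC did not reach 10 CPM. Against a floor of 3 reads NPPB was at least 1.80-fold higher in GFP-positive cells in CTR, where the ratio interval starts at 1.39. With RA it was 3.43-fold higher (1.87 to 6.71). NPPC was 3.87-fold lower (1.64 to 10.6) in GFP-positive cells with RA, on 7 and 26 reads. A single thinned draw left 3 NPPC reads in each RA library, too few to decide its direction. These comparisons share their libraries with those between RA and CTR and are not independent of them.

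The RA to CTR ratio in GFP-positive cells was divided by that of the GFP-negative fraction, with a counting interval. The quotient was 2.33 (1.16 to 4.67) for NPPA and 2.73 (2.12 to 3.51) for NPR3, whose ratios were the larger in GFP-positive cells. For CORIN it was 2.76 (1.92 to 3.97), which here means that the lower level with RA was less pronounced in GFP-positive cells. For NPR1 it was 2.03 (1.43 to 2.88), on only 94 and 64 reads in the GFP-positive libraries. For NPR2 it was 1.49 (1.24 to 1.80) and for FURIN 0.866 (0.790 to 0.948). With 1 library per group the difference between fractions was not tested against the spread between cultures.

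NPPA and CORIN were also counted against TNNT2 reads of the same library, a measure chosen after seeing the data. NPPA had 29.9 reads per 1000 TNNT2 reads (28.9 to 30.9) in RA GFP-positive cells, 7.91 (7.45 to 8.40) in CTR GFP-positive cells, 22.5 (17.6 to 28.4) in RA GFP-negative cells and 8.32 (3.79 to 15.8) in CTR GFP-negative cells. By this count both fractions of an RA culture lay above both fractions of the CTR culture. CORIN had 29.5 (28.5 to 30.5), 46.0 (44.8 to 47.1), 19.7 (15.2 to 25.3) and 50.8 (38.0 to 66.7) reads per 1000 TNNT2 reads in the same order, so that here the CTR libraries were the high ones. Against the 13 cardiomyocyte markers together NPPA had 6.89, 1.65, 4.92 and 1.75 reads per 1000 and CORIN 6.81, 9.56, 4.31 and 10.7, which gives the same order of RA and CTR.

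The ratio of NPPA to CORIN reads, prohormone to its convertase, differed between the treatments and little between the fractions. This ratio was also chosen after the values of both genes were seen. It restates their opposite RA differences and their similar folds across the sort. It was 1.01 (0.966 to 1.06) in RA GFP-positive and 1.14 (0.804 to 1.62) in RA GFP-negative cells, and 0.172 (0.161 to 0.184) in CTR GFP-positive and 0.164 (0.0711 to 0.334) in CTR GFP-negative cells. The fractions of one treatment overlapped in their intervals, and those of different treatments did not. The GFP-negative values rest on 73 and 64 reads with RA and on 9 and 55 reads in CTR.

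**Figure D3:**
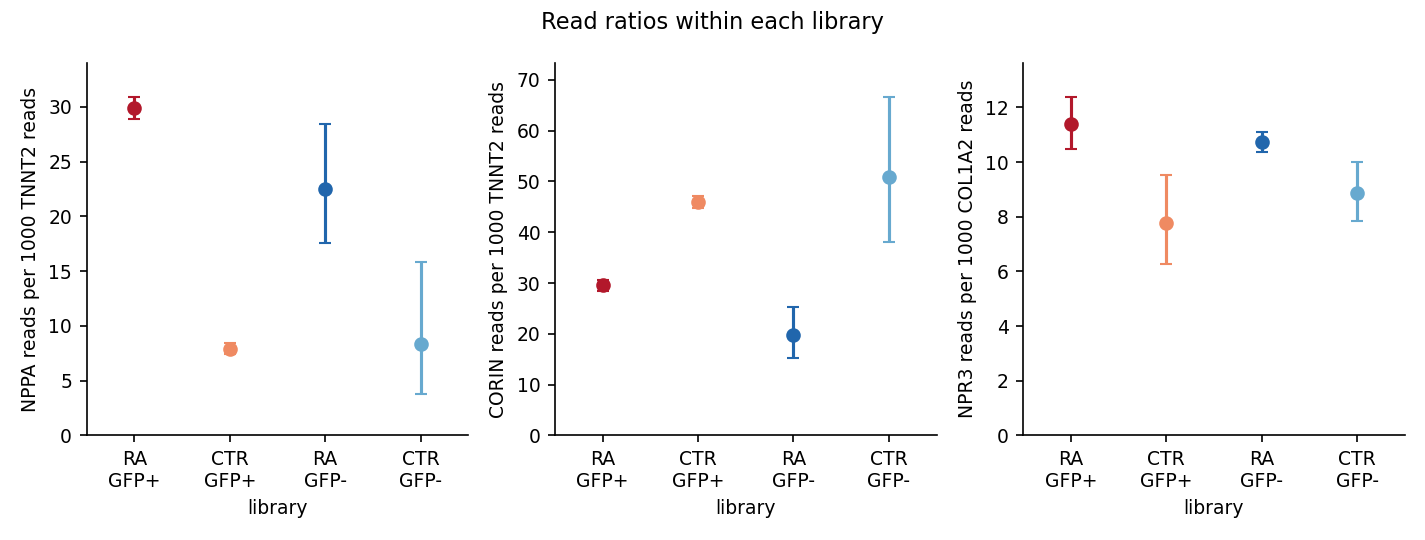
NPPA and CORIN reads per 1000 TNNT2 reads and NPR3 reads per 1000 COL1A2 reads in each library, with 95% Clopper-Pearson intervals. NPPA is higher in both RA libraries and CORIN in both CTR libraries, while NPR3 lies between 7.78 and 11.4.

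Per kilobase of exon, the receptors could be compared with each other. Their levels in RA GFP-positive, CTR GFP-positive, RA GFP-negative and CTR GFP-negative cells were 0.710, 0.451, 7.07 and 9.12 CPM per kilobase for NPR1. For NPR2 they were 3.73, 2.91, 4.04 and 4.72, and for NPR3 2.12, 0.329, 13.5 and 5.70. The order of the receptors thus differed between the libraries, with NPR2 first in GFP-positive cells, NPR3 first in RA GFP-negative cells and NPR1 first in CTR GFP-negative cells. As a share of the receptor sum, NPR3 took 32.3% with RA and 8.90% in CTR in GFP-positive cells, and 54.8% with RA and 29.2% in CTR in GFP-negative cells. NPR2 took 56.8% and 78.9% in GFP-positive cells and 16.4% and 24.1% in GFP-negative cells. NPR1 took 10.8% and 12.2%, then 28.7% and 46.7%. With the length of the canonical transcript in place of all exons, NPR2 in CTR GFP-negative cells took 33.5% and NPR1 39.0%, and the leading receptor of each library was unchanged. The ratio of NPR3 to NPR1 reads was higher with RA in both fractions, 6.02 against 1.47 in GFP-positive and 3.84 against 1.26 in GFP-negative cells.

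**Figure D4:**
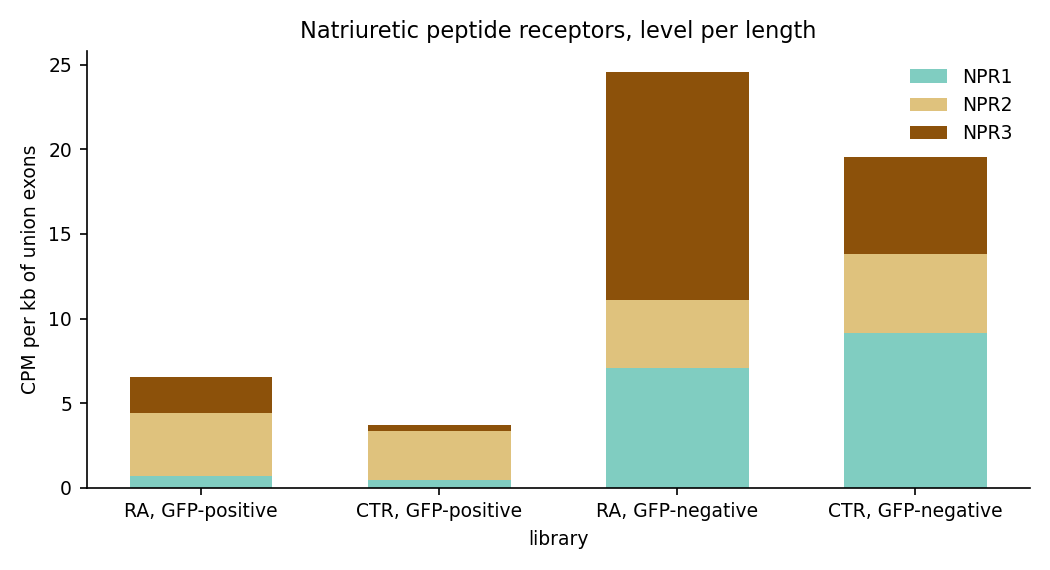
Summed level of the receptors NPR1, NPR2 and NPR3 per library, in CPM per kilobase of exon, stacked by gene. The sums are 6.56 and 3.69 in RA and CTR GFP-positive cells and 24.6 and 19.5 in RA and CTR GFP-negative cells, and the NPR3 part is larger with RA in both fractions.

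Genes around the pathway were examined as lists. Of 4 genes for peptide breakdown and for the NPR3 ligand osteocrin (MME, IDE, DPP4 and OSTN), 3 had at least 10 CPM in the GFP-negative libraries and 1 was at least 2-fold higher with RA there, beside 4.95% of all genes. That gene was MME, neprilysin, a membrane peptidase that degrades natriuretic peptides. It stood at 6.24 CPM in RA GFP-positive, 1.85 in CTR GFP-positive, 90.9 in RA GFP-negative and 40.2 in CTR GFP-negative cells, 3.38-fold and 2.26-fold higher with RA. MME and NPR3, both of which remove peptide, were thus high in the same libraries. IDE, the insulin-degrading enzyme, lay between 41.8 and 74.1 CPM and went the other way. Its RA to CTR ratio was 0.797 (0.746 to 0.851) in GFP-positive and 0.818 (0.711 to 0.945) in GFP-negative cells. GFP-positive cells held more IDE, with ratios over the GFP-negative fraction of 1.45 in CTR and 1.41 with RA. DPP4 stood at 1.72, 0.838, 16.1 and 17.5 CPM in the order given for MME. Its RA to CTR ratio in GFP-negative cells was 0.919 (0.724 to 1.18), an interval that includes 1. Of 6 other proprotein convertases, 2 reached 10 CPM in the GFP-positive fraction and 4 in the GFP-negative one, and none of these differed by 2-fold with RA, beside 5.81% and 8.13% of all genes.

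Among 12 genes of cGMP signalling, 7 reached 10 CPM in the GFP-positive fraction and 8 in the GFP-negative one, and PDE3A was the 1 past 2-fold in each, beside 5.81% and 8.13% of all genes. PDE3A encodes a phosphodiesterase that breaks down cAMP and is inhibited by cGMP. It stood at 90.1, 31.02, 202 and 69.4 CPM in RA GFP-positive, CTR GFP-positive, RA GFP-negative and CTR GFP-negative cells. The RA to CTR ratio was 2.90 in both fractions, with an interval of 2.69 to 3.14 in the GFP-positive and 2.60 to 3.26 in the GFP-negative one. GUCY1A1 and GUCY1B1, the subunits of the nitric oxide receptor that also makes cGMP, were at 0.603 and 0.594 of CTR with RA in GFP-positive cells, and at 1.22 (1.07 to 1.39) and 0.998 (0.862 to 1.16) of CTR in the GFP-negative fraction. PRKG1, a cGMP-dependent kinase, lay between 17.8 and 36.0 CPM.

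Of 15 heart transcription factors listed for their possible part in NPPA and NPPB expression, all had at least 10 CPM in GFP-positive cells. With RA, 2 were at least 2-fold higher there (NR2F1 and NR2F2) and 2 lower (TBX20 and TBX3), where 4.14% of all genes were higher and 1.67% lower. NR2F2, an atrial orphan nuclear receptor, stood at 534 CPM with RA and 27.0 in CTR in GFP-positive cells. TBX20, a T-box factor of the heart, stood at 90.4 CPM with RA and 291 in CTR. GATA4, TBX5 and MYOCD, which activate NPPA, lay closer together in these libraries, at 603 and 530, 122 and 97.3, and 117 and 113 CPM with RA and in CTR. In GFP-negative cells 14 of the 15 had at least 10 CPM, of which 3 were at least 2-fold higher with RA (NR2F2, TBX2 and TBX3) and 1 lower (TBX20), beside 4.95% and 3.18% of all genes. Of 4 genes around NPPA and NPPB, 3 had at least 10 CPM. None of these differed by 2-fold with RA in either fraction, beside 5.81% and 8.13% of all genes. They were CLCN6 at 75.7 and 92.4 CPM with RA and in CTR in GFP-positive cells, KIAA2013 at 72.2 and 66.2, and PLOD1, a collagen lysyl hydroxylase, at 322 and 389. The antisense gene NPPA-AS1 had 28, 21, 12 and 1 reads in RA GFP-positive, CTR GFP-positive, RA GFP-negative and CTR GFP-negative cells, and reads of the overlapping strands cannot be told apart.

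**Figure D5:**
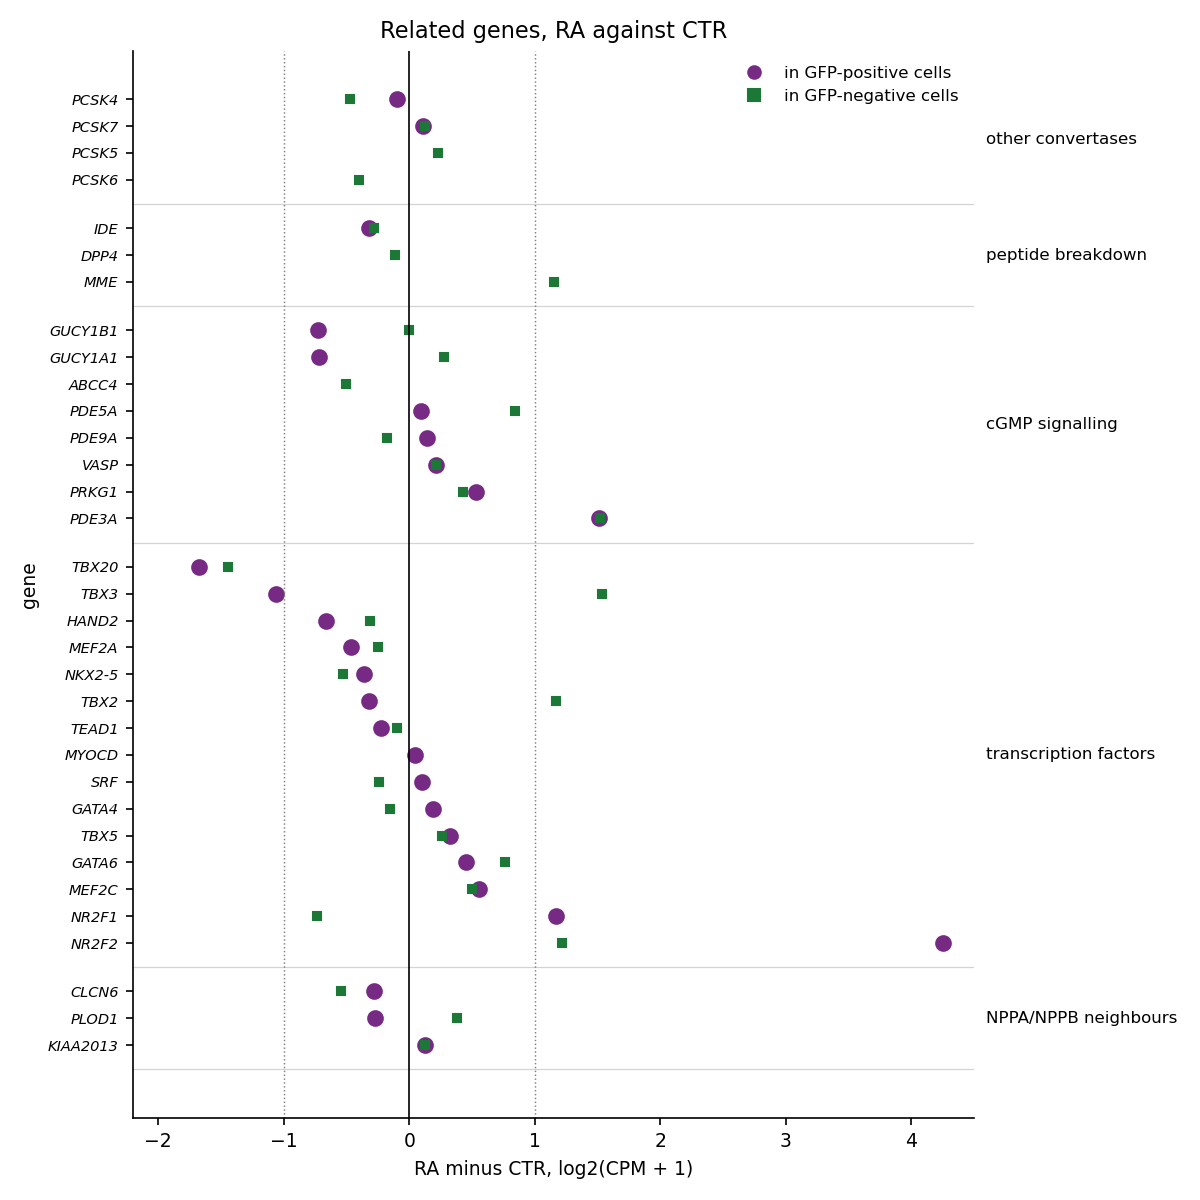
Difference of log2(CPM + 1) between RA and CTR for related genes that reached 10 CPM in 1 or both libraries, in GFP-positive (circles) and GFP-negative cells (squares). Dotted lines mark 2-fold; PDE3A and NR2F2 lie above it and TBX20 below it in both fractions, and TBX3 is on opposite sides.

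The genes nearest to a member in profile over the 4 libraries were found by the distance between centred log2(CPM + 1) values, among genes with at least 10 CPM in a library. Nearest to NPPA were SHD at a distance of 0.684, CACNA1D at 0.756, KCNIP2 at 0.770, ITGB1BP2 at 0.928 and SPHKAP at 0.993. CACNA1D encodes a calcium channel and KCNIP2 a potassium channel subunit of heart muscle. Nearest to NPR3 were COL1A2 at 0.293, GREM1 at 0.327, BGN at 0.378, THY1 at 0.397 and ELN at 0.404, which encode a collagen chain, a secreted BMP antagonist, a matrix proteoglycan, a surface glycoprotein of stromal cells and elastin. NPPB, with little variation on this scale, was nearest to BST2 at 0.083, KLHL13 at 0.125, CABLES2 at 0.127, VPS37A at 0.135 and ZMIZ1 at 0.139. With Pearson correlation over the 4 libraries as the measure, 0 of these 5 remained among the nearest 5 for each of the 3 members, so that the lists describe this distance over 4 points and no more.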

How the data were processed

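RNA of 4 sorted populations was measured, with 1 library each. The authors prepared strand-specific libraries from total RNA, sequenced paired ends, trimmed them with SICKLE, aligned them to a custom hg19 genome with GSNAP, sorted them with SAMtools 0.1.18 and kept unique alignments. They counted reads per Ensembl gene with HTSeq 0.6.1p1 (intersection-nonempty, strand ignored) and deposited the raw counts. Where exons of opposite strands overlap, as for NPPA and NPR2, reads inside the overlap are ambiguous. The Ensembl release used is not given in the sources used here.

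Groups were taken from the sample labels. Names were matched by Ensembl identifier (55539 of 60234 matched), coordinates and exon lengths are those of GENCODE lifted to GRCh37, and promoter windows are those of RefSeq. NPPA-AS1 took its name from the gene list of the study. CPM were computed from the counts with edgeR 4.0.16 in R 4.3.3, using TMM factors over all 4 libraries (0.951 to 1.07). Libraries were compared as differences of log2(CPM + 1), and a gene was counted as different past 2-fold if it also reached 10 CPM in 1 or both libraries. Gene totals per library set the precision: 3 reads correspond to 0.105 to 0.117 CPM in 3 libraries and to 0.639 CPM in that of CTR GFP-negative cells. Mitochondrial genes took 5.56% to 14.9% of reads. With 1 library per group no test was made. The alternatives were other scalings, including DESeq2 1.42.0 size factors, pseudocounts of 0.25 and 5 CPM, other minimum levels and thinning of all libraries to 4371101 reads. The procedure was run on simulated Poisson counts with 200 genes changed 4-fold, of which it recovered 100% in each comparison. These counts had no spread between cultures and shared the counting model of the intervals. The run therefore says nothing on differences between cultures. The members, the related lists and the motifs were chosen with earlier results of these data known. All 8 members were named. Genes of the related lists could be named where they had at least 10 CPM in a library, and OSTN and the antisense gene NPPA-AS1 are named below that level. A further gene near NPPA and NPPB is not reported here. Protein sequences were not analysed here. Figures were drawn with matplotlib 3.10.9.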

Additional observations from a re-analysis of the deposited data

Results flagged for a closer look

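NPR1 was the member with at least 10 CPM in a library whose RA difference pointed in opposite directions in the fractions with neither interval including 1. Its log2 difference between RA and CTR was 0.48 in GFP-positive cells, on 94 and 64 reads, and -0.36 in GFP-negative cells, on 898 and 212 reads. In the GFP-positive libraries NPR1 stood at 3.51 and 2.23 CPM, below 10 CPM. A single draw thinned to the shallowest library gave a difference of -0.02 there on 13 and 14 reads, too few to decide the direction. Whether the fractions differ in this was not tested, as each group has 1 library.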

How the results depend on the processing

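Each of the 32 differences of a member in a comparison was recomputed under 8 alternatives, giving 256 values. Of these, 236 stayed within the counting interval and 20 did not, and 3 differences, each within 2-fold or on few reads, took the opposite sign under at least 1 alternative: NPR1 in GFP-positive cells at equal depth (-0.02), NPPC between the fractions with RA (0.01), and FURIN between the fractions with RA (up to 0.02). At equal depth the NPPB difference between RA and CTR in GFP-positive cells was 1.11 in place of 0.42, and the ratio of NPPA to NPPB reads was 50.5 with RA and 58.3 in CTR in place of 69.9 and 32.8. These values come from a single random draw and rest on 11 and 3 NPPB reads, too few to decide an order. The NPPA difference in GFP-positive cells lay between 1.66 and 1.78, that of NPR3 between 1.66 and 2.60, and that of CORIN in GFP-negative cells between -2.12 and -1.16. The members past 2-fold kept their number under the scalings, pseudocounts and thinning. Without a minimum level NPPC was added in GFP-negative cells, giving 3, and NPPB between the fractions in CTR, giving 5. Over all genes, the counts past 2-fold without a minimum level were 1260 in place of 650 for RA in GFP-positive cells, 3038 in place of 943 for RA in GFP-negative cells, 5837 in place of 2973 between the fractions in CTR and 4393 in place of 2656 with RA, and a pseudocount of 5 CPM gave 592 for RA in GFP-negative cells. Scaling by library size moved the median of all genes in that comparison from 0.08 to -0.06. No paired analysis was possible because each group has 1 library, and no replicate could be left out. The depth of the CTR GFP-negative library limits NPPA, NPPB and NPPC there.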
